A study of Homo sapiens with 12 samples.

Results

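The mean effect of macrophage co-culture on the mRNA of PANC-1 cells was measured over both oxygen levels of the series. PANC-1 cells are an established human line from a pancreatic ductal adenocarcinoma, and they are the only tumour line in these samples. All 12 arrays of the series were used, and none was left out. NPC arrays hold PANC-1 cells grown alone under normoxia, and NPM arrays hold PANC-1 cells grown with tumour-associated macrophages (TAMs) under normoxia. HPC and HPM arrays hold the same 2 cultures under hypoxia, with 3 arrays in each of the 4 groups. No oxygen percentage is stated in the sources used here. Co-culture lasted 4 days in a transwell, in which a porous membrane lets secreted factors pass while it keeps the cell types apart. The methods describe the TAMs as macrophages made from the THP-1 monocytic line and polarized with IL-4 and IL-13, so that they stand for TAMs as a cell model and were not taken from tumours. Every array was of total RNA of the PANC-1 side, labelled with Cy3. The 6 co-culture arrays were compared with the 6 arrays of cells alone within 6 same-numbered pairs, 3 at each oxygen level. An effect is the mean over these pairs of co-culture minus alone on the log2 scale of intensity. A feature, which is a transcript target of the array, was said to rise or fall where its adjusted p in limma (Benjamini-Hochberg over all 34487 features, 2-sided) was under 0.05. The methods state for the study's data in general, with exceptions noted, that they stem from 3 or more independent experiments. No source used here says what the replicate numbers of these arrays mark. The p-values measure the spread of the 6 paired differences, which takes in any difference of the effect between oxygen levels.

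Cells that receive type I interferon or interferon-gamma pass the signal through JAK kinases to STAT proteins, which move to the nucleus as dimers that bind GAS elements or within the ISGF3 complex that binds ISRE elements. Genes under their control include the guanylate-binding proteins, the RNA sensors and the machinery that loads peptides on MHC class I. A proliferating cell switches on its replication genes through E2F factors at the G1/S transition and its mitotic genes later, through NF-Y at CCAAT boxes and the MuvB complexes at CHR elements. Sterol-regulatory element-binding proteins (SREBPs) switch on the enzymes of cholesterol and fatty acid synthesis when membrane sterol is low.

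The arrays were alike in overall intensity, with medians of log2 intensity from 9.17 to 9.29 and correlations between arrays from 0.909 to 0.973. Ductal epithelial markers were bright on every array, as the median member of a list of 10 stood above 79.8% to 85.7% of all features, which fits the labelled cells. Of these 10 markers 1 fell, KRT18 (10%, against 4.82% of all features), and 0 rose. Their summed intensity did not overlap between cultures, at 68664 to 79815 in NPC against 60182 to 64763 in NPM and 76022 to 82109 in HPC against 58415 to 64630 in HPM. Among lymphocyte and endothelial markers 0 of 10 and 0 of 6 measured members passed the test described above, and in either list 1 member was higher and 1 lower at an unadjusted p under 0.05. The endothelial sum was nonetheless higher in co-culture without overlap, at 3075 to 3459 in NPC against 3880 to 4042 in NPM and 2987 to 3484 in HPC against 3517 to 3775 in HPM. The lymphocyte sum overlapped under normoxia (1124 to 1815 in NPC and 1291 to 2306 in NPM) and not under hypoxia (1542 to 1793 in HPC and 1840 to 1908 in HPM). These sums add linear intensities, so that bright members weigh most. KRT8 (mean 14.84 alone and 14.47 in co-culture) and KRT18 (14.44 and 13.94) are bright in the ductal list, whereas MUC1 was higher in co-culture (11.37 and 11.83). ENG (10.73 and 11.03) is bright in the endothelial list, whereas KDR was lower in co-culture (6.76 and 6.18). A sum is therefore no measure of its list as a whole, and the part of these shifts in the results was not tested.

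Co-culture changed 2678 of 34487 features (7.77%) on average over both oxygen levels, of which 1016 rose (2.95%) and 1662 fell (4.82%). The change was over 2-fold for 236 of them, 101 higher and 135 lower. In all 6 pairs 6529 features moved the same way (18.9%), 2653 higher (7.69%) and 3876 lower (11.2%). Both criteria were met by 2596 features (7.53%), 981 higher (2.84%) and 1615 lower (4.68%). Gene names were available for 1243 of these features, which stand for 1165 genes, 425 higher and 740 lower. Their median absolute effect was 0.65 on the log2 scale, with quartiles of 0.53 and 0.81. Some 3933 features moved the same way in all 6 pairs without passing the test, and 82 passed without moving the same way in every pair. A difference between the effects at the 2 oxygen levels was found for 31 of all features (0.0899%), and for 1 of the 2596, CCL22. The 2596 were chosen by a fit with 1 common effect and by direction. Such a choice disfavours features whose effects differ, so nothing is read from the count among the 2596. Over other settings the count among all features ran from 0 to 1496. The effect was larger in size under normoxia for 1247 of the 2596 features and under hypoxia for 1349. With any 1 pair left out 840 to 1499 features passed, and with the arrays numbered 3 left out, which leaves 4 pairs, 0 passed while 7096 had an unadjusted p under 0.05.

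**Figure D1:**
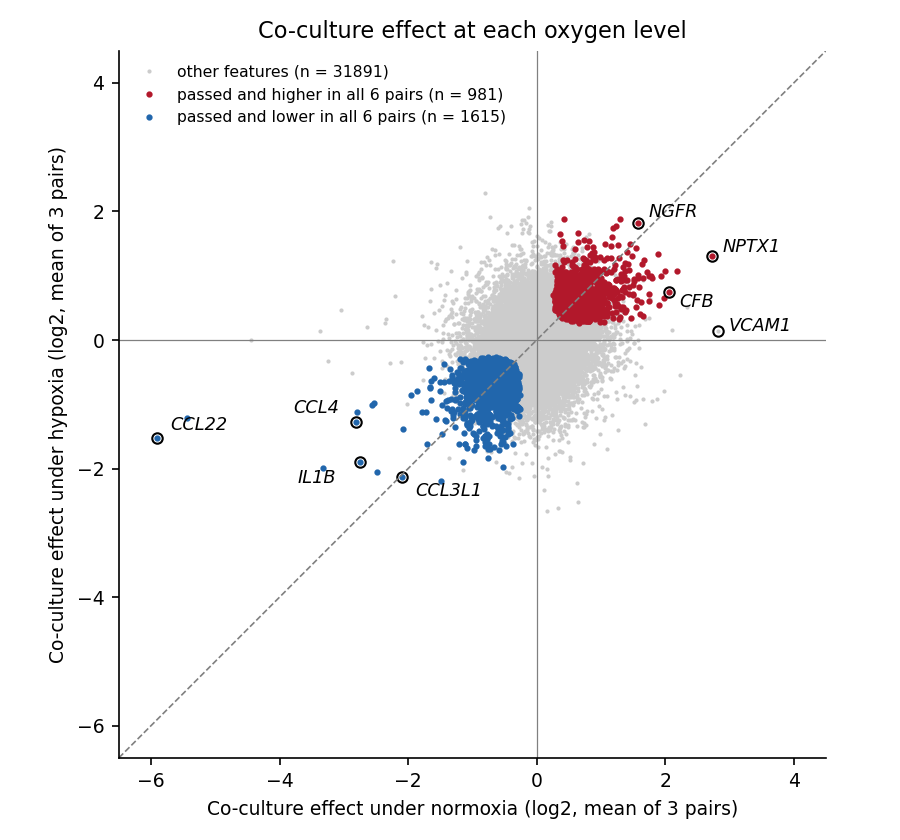
Each point is a feature, placed by its co-culture effect (co-culture minus alone, log2 intensity, mean of 3 pairs) under normoxia on the horizontal axis and under hypoxia on the vertical axis, with red and blue for the 981 and 1615 features that passed the test and moved the same way in all 6 pairs, and a dashed line where both effects are equal. The coloured points lie in the upper right and lower left fields by the way they were chosen, CCL22 lies far from the dashed line at -5.90 and -1.53, and VCAM1 lies at 2.82 and 0.14 and is grey.

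The largest rise was that of NPTX1, which encodes a secreted neuronal pentraxin. Its log2 intensity was 7.83, 8.32 and 7.81 on the NPC arrays, 10.80, 10.53 and 10.82 on the NPM arrays, 9.50, 9.73 and 9.22 on the HPC arrays and 10.83, 10.95 and 10.59 on the HPM arrays. Every co-culture array lay above every array of cells alone, and the cells under hypoxia already started from a higher level. The mean effect was 2.02 ± 0.28 (SE, n = 6 pairs), a 4.05-fold rise with an adjusted p of 0.00985, and it was 2.73 under normoxia and 1.31 under hypoxia (adjusted p of the difference = 0.0791). NGFR, the low-affinity receptor of neurotrophins, read 8.01, 8.09 and 8.17 in NPC, 9.83, 9.27 and 9.88 in NPM, 9.73, 9.68 and 9.54 in HPC and 11.64, 11.51 and 11.25 in HPM. Its groups were apart within each oxygen level but overlapped across them, and the mean effect was 1.70 ± 0.12, adjusted p = 0.00429, a 3.24-fold rise of like size at both oxygen levels (1.58 under normoxia and 1.82 under hypoxia). GBP2, an interferon-induced guanylate-binding protein that acts against intracellular pathogens, rose 2.77-fold (1.47 ± 0.17, adjusted p = 0.00761). Its NPC values of 7.84, 8.43 and 8.14 and HPC values of 8.17, 7.75 and 7.28 were all below the NPM values of 9.86, 9.64 and 9.27 and the HPM values of 10.19, 8.78 and 8.71. Its relative GBP3 rose by 1.30 ± 0.14, adjusted p = 0.00761, with 1.42 and 1.18 at the 2 oxygen levels.

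Several of the other large rises were receptors or surface proteins of immune signalling. LRRC32, also called GARP, which holds latent TGF-beta at the cell surface, rose by 1.47 ± 0.15, adjusted p = 0.00761, with the 6 arrays of cells alone between 7.56 and 8.36 and the 6 co-culture arrays between 9.19 and 9.58. IL2RG, the common gamma chain of several interleukin receptors, rose by 1.38 ± 0.23, adjusted p = 0.0157, with adjusted p = 0.0598 in the paired test without limma's moderation of the variance. CFB, complement factor B of the alternative pathway, read 9.70, 9.87 and 9.79 in NPC and 11.94, 12.15 and 11.46 in NPM, against 11.02, 11.23 and 11.12 in HPC and 11.86, 11.90 and 11.83 in HPM. Co-culture and alone did not overlap over the 12 arrays, its mean effect was 1.40 ± 0.25, adjusted p = 0.0195, and without any 1 of the normoxia pairs the adjusted p was 0.0502 to 0.0515, and 0.0709 in that unmoderated test. IL23R, a subunit of the IL-23 receptor, had a mean effect of 1.30 ± 0.27, adjusted p = 0.028 but was dim, as only 0.565% to 3.93% of features lay below it on the NPC arrays, and its adjusted p was 0.194 without the replicate block. CRISPLD2, which encodes a secreted protein, rose by 1.29 ± 0.10, adjusted p = 0.00443, with no overlap between its 6 co-culture arrays and its 6 arrays of cells alone. Of the 10 largest rises, 6 had no such overlap, as did 8 of the 10 largest falls, compared with 3.18% of all features. The genes were chosen from the calls, so nothing is read from this share.

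The rises with the smallest p were smaller in size and close between oxygen levels. SOD2, the mitochondrial superoxide dismutase, rose by 1.28 ± 0.13, adjusted p = 0.00761 in its feature of smallest p, where cells alone read 11.30 to 12.07 and co-cultured cells 12.78 to 13.11. BCL2A1, an anti-apoptotic relative of BCL2 and a target of NF-kB, rose by 1.11 ± 0.11, adjusted p = 0.00761. CSF1, the growth factor of macrophages, rose by 0.84 ± 0.09, adjusted p = 0.00761, and all 4 of its features passed with effects of 0.79 to 0.92. Its values were 9.68, 9.76 and 9.69 in NPC, 10.39, 10.64 and 10.48 in NPM, 9.70, 9.72 and 9.34 in HPC and 10.57, 10.65 and 10.16 in HPM, so that all co-culture arrays lay above all arrays of cells alone. GRIN1, a subunit of the NMDA receptor, rose by 1.26 ± 0.14, adjusted p = 0.00761, and OLFM2, an olfactomedin, by 1.02 ± 0.11, adjusted p = 0.00761.

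**Figure D2:**
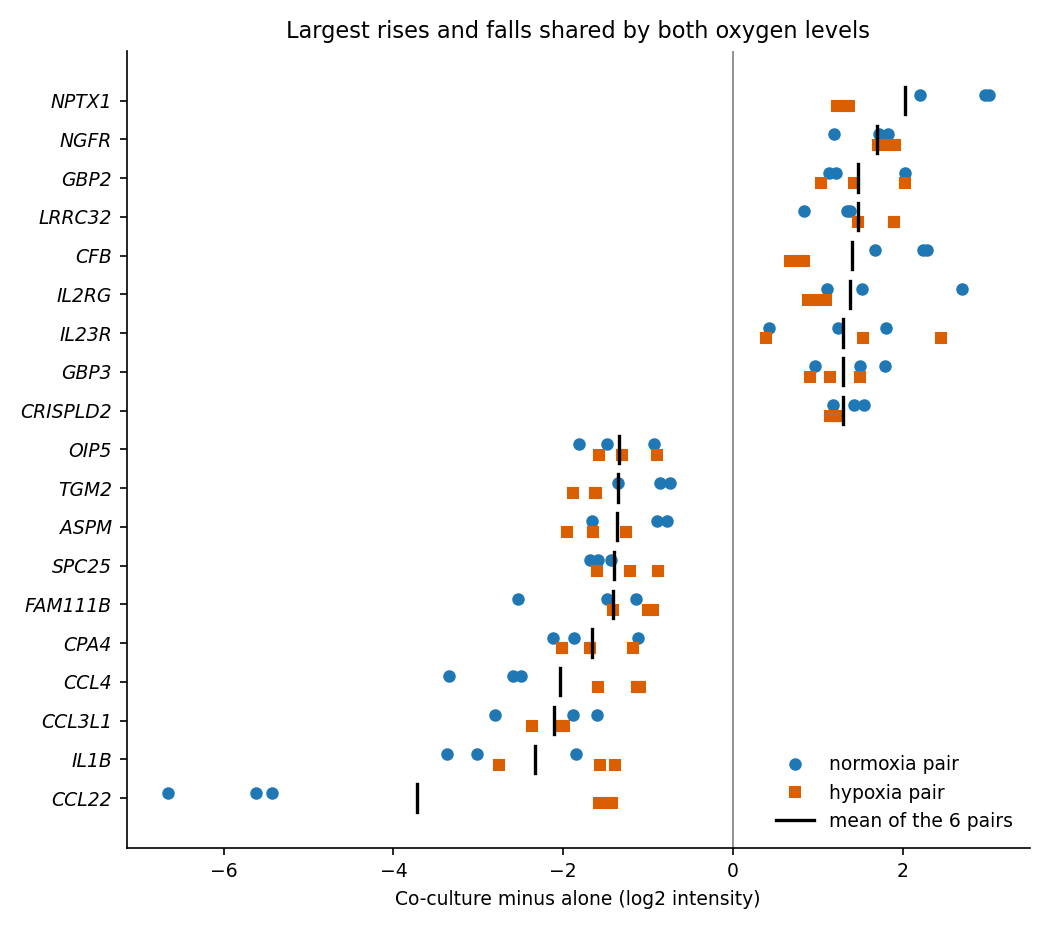
For 9 of the 10 genes that rose most and the 10 that fell most, each symbol is the difference of 1 pair (co-culture minus alone, log2 intensity; circles for normoxia, squares for hypoxia) and the black line is the mean of the 6 pairs. The 6 pairs of a gene lie on 1 side of 0, which the choice of the genes required, and the widest gap between oxygen levels is that of CCL22, with 3 normoxia pairs far to the left and 3 hypoxia pairs nearer 0.

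The deepest falls were of chemokines and a cytokine that macrophages also make. CCL22, a ligand of CCR4, read 11.69, 11.39 and 11.38 in NPC and 6.07, 5.96 and 4.71 in NPM, and 10.98, 10.83 and 10.84 in HPC and 9.55, 9.26 and 9.26 in HPM. All co-culture arrays lay below all arrays of cells alone, and the mean effect was -3.72 ± 0.77, adjusted p = 0.0288. The fall was -5.90 under normoxia and -1.53 under hypoxia, a difference of 4.38 (adjusted p = 0.0314), with CCL22 near the floor on the NPM arrays, where only 0.139% to 4.17% of features lay below it. The size of the normoxia fall is therefore uncertain. The mean effect of CCL22 lies between 2 unlike values, and without any 1 of the normoxia pairs its adjusted p was 0.0598 to 0.0758, and in the paired test without moderation 0.104. IL1B, the inflammatory cytokine interleukin-1 beta, fell by 2.33 ± 0.28 (adjusted p = 0.00842). It went from 9.16, 9.67 and 9.02 in NPC to 6.14, 6.29 and 7.17 in NPM, and from 9.22, 9.44 and 9.61 in HPC to 7.66, 6.69 and 8.23 in HPM. The IL1B groups did not overlap, and the effects were -2.75 under normoxia and -1.90 under hypoxia. CCL3L1, an inflammatory chemokine, had an effect of -2.11 ± 0.16, adjusted p = 0.00429, nearly the same at both oxygen levels (-2.09 under normoxia and -2.13 under hypoxia). CCL4, another inflammatory chemokine, had an effect of -2.04 ± 0.30, adjusted p = 0.0116, with adjusted p = 0.0511 in the unmoderated test, and CCL3 one of -1.14 ± 0.20, adjusted p = 0.0189. CCL3, CCL3L1 and CCL3L3 are near-identical copies, and which of them a feature read is uncertain.

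Over the 17 measured CC chemokines, 5 fell, namely CCL22, CCL3L1, CCL4, CCL3 and CCL3L3, and 1 rose, in all 35.3% against 7.77% of all features. The list median was −0.43 against −0.014 over all features, and 3 to 6 passed with any 1 pair left out. The member that rose was CCL5, which NF-kB and interferon signalling induce, with 12.38, 12.30 and 12.13 in NPC, 13.58, 14.11 and 13.69 in NPM, 12.34, 12.76 and 12.42 in HPC and 13.47, 13.68 and 13.22 in HPM (1.24 ± 0.15, adjusted p = 0.00842). Its 6 co-culture arrays lay above its 6 arrays of cells alone. In the family of CXC and CX3C chemokines 1 of 8 measured members passed (12.5%, against 7.77% of all features), the membrane-bound CX3CL1, which rose by 1.11 ± 0.17, adjusted p = 0.0125, whereas CXCL1 had -0.47 ± 0.16, adjusted p = 0.101.

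Markers of macrophages were measured beside these falls, since the arrays hold RNA of all cells collected. Of 21 measured members 2 rose and 1 fell (in all 14.3%, against 7.77% of all features), the median effect was −0.31, and 1 to 3 passed with any 1 pair left out. Their summed intensity was 9336 to 10440 in NPC, 7004 to 7542 in NPM, 7388 to 7969 in HPC and 8533 to 8807 in HPM, and the median member stood above only 9.64% to 17.4% of features. The sum was thus lower in co-culture under normoxia and higher in co-culture under hypoxia. It adds linear intensities, so that bright members weigh most, and CCL22 itself is 1 of them (mean 11.48 in NPC and 5.58 in NPM). CD68, another, had means of 11.57 in HPC and 12.37 in HPM. The sum is therefore no measure of the list as a whole. The members that rose were ADGRE1, the human homologue of the mouse F4/80 antigen (1.24 ± 0.18, adjusted p = 0.0107), and CD68, a lysosomal membrane protein that other cells also express (0.56 ± 0.13, adjusted p = 0.0386), and the one that fell was CCL22. LYZ, lysozyme, had an effect of -0.90 ± 0.24, adjusted p = 0.054, and the monocyte receptor CD14 one of -0.25 (adjusted p = 0.515). LCP1, the leukocyte plastin, read 7.16 to 7.49 in NPC and 3.98 to 4.18 in NPM, with an effect of −3.24 under normoxia and −0.32 under hypoxia, and CHI3L1, a secreted chitinase-like protein, read 9.06 to 9.62 in NPC and 4.67 to 5.10 in NPM, with −4.44 under normoxia and 0.00 under hypoxia. Neither passed the test of the mean effect. By their labels the NPC and HPC arrays hold PANC-1 cells grown without macrophages, and in co-culture a membrane kept the cell types apart. In bulk samples, fewer cells of a type and less RNA per cell cannot be told apart. The part of other cells in the falls of CCL22, IL1B, CCL3L1 and CCL4 was not tested.

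Lists of genes induced by interferons had median effects above 0 at both oxygen levels. The interferon-gamma list had 27 measured genes, of which 13 rose (48.1%, against 2.95% of all features) and 0 fell, with a median effect of 0.60 (0.74 under normoxia and 0.41 under hypoxia). GBP2 and GBP3 are among them. APOL1, a lipid-binding protein that lyses trypanosomes, read 11.81, 11.76 and 11.92 in NPC, 12.79, 12.99 and 12.99 in NPM, 11.77, 11.67 and 11.84 in HPC and 12.52, 12.54 and 12.44 in HPM. Its 6 co-culture arrays lay above its 6 arrays of cells alone, with a rise of 0.92 ± 0.11 (adjusted p = 0.00851). Among those that did not pass, IDO1, which breaks down tryptophan, had an effect of -0.79 (adjusted p = 0.0575). The type I interferon list had 36 measured genes, of which 8 rose (22.2%, against 2.95% of all features) and 0 fell, with 7 of the calls the same way in all 6 pairs, and a median of 0.32 (0.55 and 0.21). DDX60, a helicase of antiviral RNA sensing, rose by 1.16 ± 0.13, adjusted p = 0.00761, and IFIH1, the sensor MDA5 of long double-stranded RNA, by 0.90 ± 0.13, adjusted p = 0.0107. DDX60 had 8.91, 9.25 and 8.39 in NPC and 10.08, 10.20 and 9.90 in NPM, then 8.51, 8.73 and 8.55 in HPC and 9.93, 9.92 and 9.26 in HPM. SP110, a nuclear body protein, rose by 0.67 ± 0.10, adjusted p = 0.0128, and PARP12, an ADP-ribosyltransferase, by 0.75 ± 0.13, adjusted p = 0.019. The other 28 type I genes did not pass, among them ISG15 (0.02, adjusted p = 0.92) and IFIT2 (-0.19, adjusted p = 0.283). OASL did not pass either (-0.33, adjusted p = 0.319), with 0.10 under normoxia and -0.75 under hypoxia. At an unadjusted p under 0.05, 15 members of the type I list were higher and 0 lower. With any 1 pair left out the interferon-gamma genes had 6 to 9 calls and the type I genes 3 to 7.

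Genes of antigen presentation by MHC class I rose too, with 11 of 22 measured members higher (50%, against 2.95% of all features) and 0 lower and a median of 0.51 (0.60 under normoxia and 0.39 under hypoxia). TAP1, which pumps peptides into the endoplasmic reticulum, read 13.06, 12.59 and 13.09 in NPC, 14.24, 14.02 and 14.15 in NPM, 12.84, 13.04 and 12.77 in HPC and 13.81, 13.76 and 13.43 in HPM. All its co-culture arrays lay above all arrays of cells alone, with an effect of 1.01 ± 0.13, adjusted p = 0.00853. PSMB9, a subunit of the immunoproteasome, rose by 0.76 ± 0.12, adjusted p = 0.0139. The heavy chain genes HLA-G (0.63 ± 0.10, adjusted p = 0.0136) and HLA-F (0.55 ± 0.10, adjusted p = 0.018) rose as well, but HLA genes are near-identical and their features may read each other. When any 1 pair was left out, 3 to 5 of the MHC class I genes passed. In MHC class II 1 of 10 measured members passed (10%, against 7.77% of all features), CD74, the invariant chain that guides class II molecules, with 9.92, 9.70 and 9.80 in NPC and 11.80, 11.77 and 11.78 in NPM, and 10.00, 10.58 and 10.18 in HPC and 10.91, 11.16 and 10.69 in HPM (1.32 ± 0.25, adjusted p = 0.0215), and 2 of its 3 features passed. Its class II partner HLA-DRA did not pass and went opposite ways, -3.05 under normoxia and 0.47 under hypoxia (-1.29 ± 0.66, adjusted p = 0.251).

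The start-site windows of 4 interferon-responsive genes that rose are shown with the elements that STAT complexes bind. Each sequence runs 5′ to 3′ from 250 bases before to 50 bases after the first start that RefSeq lists, in build GRCh38.p14. Capitals mark matches, on either strand, to the ISRE letters GAAANNGAAA, to the GAS letters TTCNNNGAA and, in TAP1 alone, to the kappaB motif of NF-kB.
GBP3, chr1:89022817-89023116, minus strand: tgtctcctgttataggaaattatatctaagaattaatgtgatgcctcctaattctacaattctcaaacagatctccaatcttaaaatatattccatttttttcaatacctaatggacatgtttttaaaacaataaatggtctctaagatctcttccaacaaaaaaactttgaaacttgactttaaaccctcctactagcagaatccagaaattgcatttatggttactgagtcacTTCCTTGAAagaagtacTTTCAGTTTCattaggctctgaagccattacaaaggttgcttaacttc
DDX60, chr4:168318703-168319002, minus strand: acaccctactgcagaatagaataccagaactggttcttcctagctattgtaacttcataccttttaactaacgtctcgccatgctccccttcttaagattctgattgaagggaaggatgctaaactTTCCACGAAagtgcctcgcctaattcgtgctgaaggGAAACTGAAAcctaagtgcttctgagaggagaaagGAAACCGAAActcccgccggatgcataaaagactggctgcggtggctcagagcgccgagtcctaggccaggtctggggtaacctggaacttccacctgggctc
IFIH1, chr2:162318635-162318934, minus strand: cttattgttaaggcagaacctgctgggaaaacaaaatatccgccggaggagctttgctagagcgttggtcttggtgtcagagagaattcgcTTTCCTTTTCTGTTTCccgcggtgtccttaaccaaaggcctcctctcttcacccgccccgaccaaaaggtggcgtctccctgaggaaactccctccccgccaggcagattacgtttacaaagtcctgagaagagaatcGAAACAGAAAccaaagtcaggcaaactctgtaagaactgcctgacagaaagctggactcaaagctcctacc
TAP1, chr6:32853655-32853954, minus strand: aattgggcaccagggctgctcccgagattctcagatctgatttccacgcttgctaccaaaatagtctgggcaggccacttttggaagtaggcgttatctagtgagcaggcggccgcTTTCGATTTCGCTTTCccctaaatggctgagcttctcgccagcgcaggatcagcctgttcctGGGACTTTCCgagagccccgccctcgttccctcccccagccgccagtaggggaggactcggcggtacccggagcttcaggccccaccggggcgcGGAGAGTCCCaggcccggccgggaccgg

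GBP3 held a GAS match that began 15 bases before the start and an ISRE match just after it. DDX60 held a GAS match at 124 bases before the start and ISRE matches at 88 and 53 bases before it. In IFIH1 the ISRE matches at 159 and 153 bases before the start overlapped, and another lay at 21 bases before it. TAP1 held overlapping ISRE matches at 134 and 128 bases before the start and kappaB matches on both sides of the start. Over all 27305 promoters, 3.65% held an ISRE match, 7.88% a GAS match and 5.72% a kappaB match. An ISRE match was present in 18 of the 28 type I interferon genes with a sequence (64.3%), in 9 of 18 MHC class I genes (50%) and in 5 of 15 interferon-gamma genes (33.3%). A GAS match was present in 4 of the 15 interferon-gamma genes (26.7%). These shares take in members that did not pass, and a match describes letters, not binding. Among members that passed, 6 of 8 type I interferon genes (75%) held an ISRE match. The same held for 4 of 10 MHC class I genes (40%) and 2 of 7 interferon-gamma genes (28.6%). All 4 genes shown held an ISRE match, so their windows do not stand for the lists.

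Targets of NF-kB moved in both directions. Of 31 measured members 6 rose and 2 fell (in all 25.8%, against 7.77% of all features), and the median was 0.42. There were 4 to 6 calls with any 1 pair left out, 13 without the replicate block and 17 with a separate effect for each oxygen level. CCL5, RELB, NFKB2, ICAM1, BIRC3 and SOD2 rose, and IL1B and IL6 fell. RELB, a subunit of the non-canonical NF-kB dimer, rose by 0.63 ± 0.10, adjusted p = 0.0134, and ICAM1, which binds leukocyte integrins, by 0.60 ± 0.11, adjusted p = 0.0228. IL6 had an effect of -1.02 (adjusted p = 0.0398) and did not move the same way in every pair. Among adhesion molecules 3 of 15 measured members rose (20%, against 2.95% of all features) and 0 fell: L1CAM, known from neurons and invasive tumours (0.94 ± 0.11, adjusted p = 0.00826), CEACAM1 (0.70 ± 0.14, adjusted p = 0.0255) and ICAM1. Complement had 2 of 18 higher (11.1%, against 2.95% of all features), CFB and the classical component C2 (0.80 ± 0.15, adjusted p = 0.0207). When any 1 pair was left out, 1 to 2 adhesion genes and 1 complement gene passed.

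VCAM1, the adhesion receptor that the study followed further, did not pass the test of the mean effect. It read 5.21, 5.01 and 4.99 in NPC, 8.13, 7.79 and 7.76 in NPM, 5.02, 6.69 and 5.00 in HPC and 6.16, 5.73 and 5.25 in HPM. The NPM arrays stood apart from all the others, while HPM and HPC overlapped and the second hypoxia pair went down. The mean effect was 1.48 ± 0.52, adjusted p = 0.114, with 2.82 under normoxia and 0.14 under hypoxia (adjusted p of the difference = 0.0816). Only 0.299% to 0.626% of features lay below VCAM1 on the NPC arrays. Without the replicate block the adjusted p of its mean effect was 0.0105, and with a separate effect for each oxygen level it was 0.0148. With the replicate block as a random effect it was 0.00195. The study reported the rise of VCAM1 for NPM against NPC, a comparison without the hypoxia arrays.

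**Figure D3:**
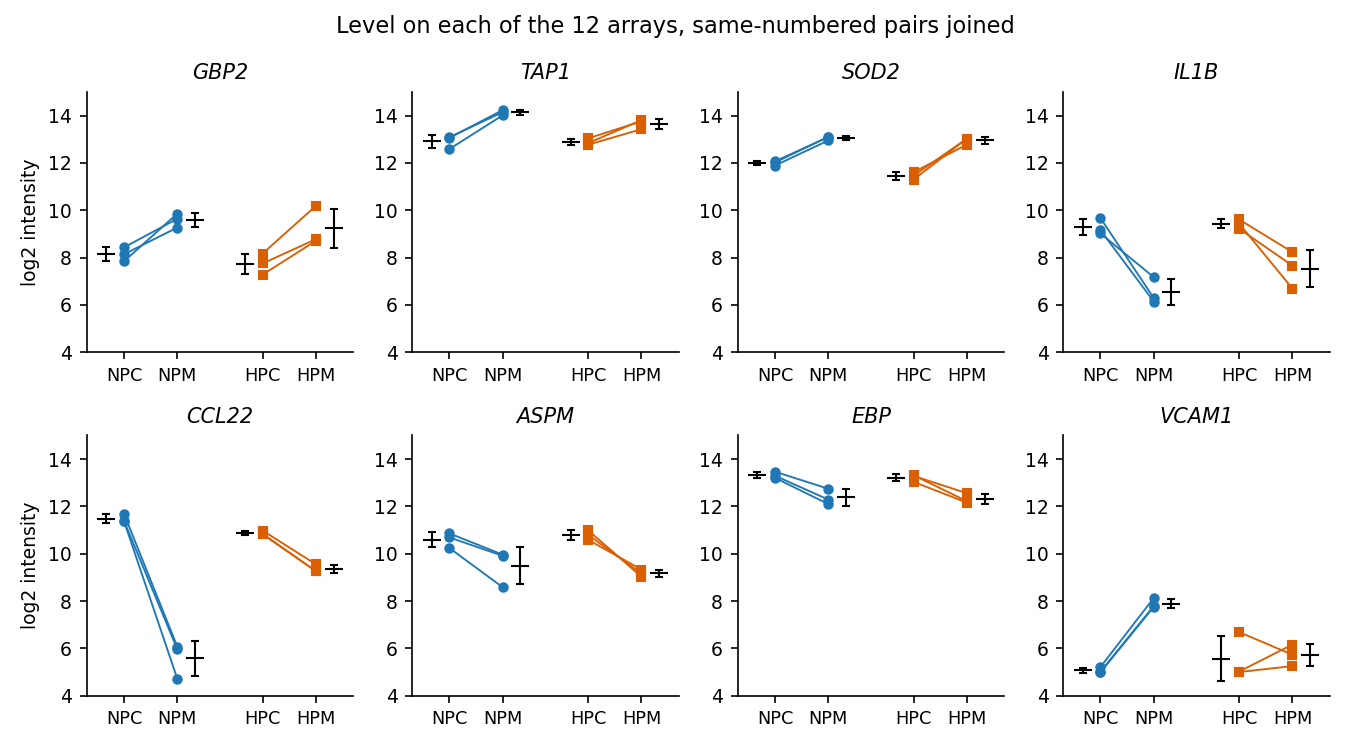
Log2 intensity of 8 genes on each of the 12 arrays, by group (NPC and NPM for cells alone and co-cultured under normoxia, HPC and HPM under hypoxia), with lines between same-numbered arrays and bars for the mean ± SD of 3 arrays. GBP2, TAP1 and SOD2 are higher and IL1B, CCL22, ASPM and EBP lower in co-culture at both oxygen levels, whereas VCAM1 is higher in NPM only, at 7.76 to 8.13.

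Of the 37 gene lists, that of mitosis and proliferation had the largest share of members past the test. Of 45 measured members 40 fell (88.9%, against 4.82% of all features) and 0 rose, and the median effect was −0.80, with −0.81 under normoxia and −0.79 under hypoxia. All 45 had a negative effect with an unadjusted p under 0.05, from −1.40 to −0.24, and 43 moved down in all 6 pairs. In 27 of the 45 all 6 co-culture arrays lay below all 6 arrays of cells alone, compared with 3.18% of all features on either side. SPC25, a subunit of the NDC80 complex that joins kinetochores to microtubules, had the largest fall of the list (-1.40 ± 0.13, adjusted p = 0.00761). Its arrays read 9.01, 8.66 and 8.0 in NPC, 7.57, 6.97 and 6.41 in NPM, 9.29, 8.47 and 8.59 in HPC and 8.40, 7.26 and 6.99 in HPM. The groups were apart at each oxygen level. BUB1B, a kinase of the spindle checkpoint, went from 9.99, 9.98 and 9.95 in NPC to 8.92, 8.86 and 8.89 in NPM and from 10.03, 9.70 and 9.56 in HPC to 8.92, 7.89 and 8.52 in HPM (a 2.30-fold fall, adjusted p = 0.00761). CCNA2, cyclin A, which acts in S phase and at the entry to mitosis, fell by 1.05 under normoxia and by 0.95 under hypoxia (adjusted p = 0.00761 for the mean), and CDC25C, the phosphatase that activates CDK1, had -1.03 ± 0.11, adjusted p = 0.00761. ASPM, a protein of the spindle poles, read 10.86, 10.69 and 10.24 in NPC, 9.96, 9.91 and 8.58 in NPM, 10.99, 10.80 and 10.59 in HPC and 9.03, 9.16 and 9.33 in HPM (-1.37 ± 0.17, adjusted p = 0.00851). OIP5, which helps to place the centromeric histone, fell by 1.34 ± 0.14 (adjusted p = 0.00761). Smaller in size but tight were the falls of ZWINT (-1.04 ± 0.10, adjusted p = 0.00761) and KNSTRN (-0.94 ± 0.10, adjusted p = 0.00761), both of the kinetochore, and of DEPDC1B (-1.10 ± 0.10, adjusted p = 0.00761), which links mitotic entry to detachment. With any 1 pair left out 27 to 36 members of the mitosis list passed.

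Genes of DNA replication fell as well, and here the values differed more between oxygen levels. Of 45 measured members 23 fell (51.1%, against 4.82% of all features) and 0 rose, with a median of −0.62, which was −0.87 under normoxia and −0.32 under hypoxia, and 9 to 13 passed with any 1 pair left out. None of its members passed the test of the difference between the 2 effects. ORC6, of the origin recognition complex, read 9.74, 9.74 and 9.56 in NPC, 8.71, 8.68 and 8.67 in NPM, 9.59, 9.53 and 9.48 in HPC and 8.88, 8.58 and 8.68 in HPM. Its groups did not overlap, and its effect was -0.91 ± 0.10, adjusted p = 0.00761. FEN1, the flap endonuclease that trims Okazaki fragments, had -1.08 ± 0.14, adjusted p = 0.0091, and POLE2, a subunit of the leading-strand polymerase, had -1.01 ± 0.14, adjusted p = 0.00985. DSCC1, of the complex that loads PCNA during cohesion, had -0.95 ± 0.13, adjusted p = 0.00971. DTYMK, which makes thymidine diphosphate for DNA synthesis, had -1.04 ± 0.11, adjusted p = 0.00761, with cells alone at 12.40 to 12.80 and co-cultured cells at 11.44 to 11.68. FAM111B, a protease known to vary with the cell cycle, had -1.42 ± 0.21, adjusted p = 0.011. In DNA repair 11 of 31 measured members fell (35.5%, against 4.82% of all features) and 0 rose (median −0.51), among them the helicase BLM (-0.85 ± 0.11, adjusted p = 0.00851), the checkpoint kinase CHEK2 (-0.76 ± 0.12, adjusted p = 0.0128) and RAD51C (-0.81 ± 0.13, adjusted p = 0.013), a paralogue of the recombinase, and 5 to 9 passed with any 1 pair left out.

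Other lists tied to the cell cycle had few calls. Of 46 measured histone genes 2 fell (4.35%, against 4.82% of all features), and the median was 0.06. They were H4C3 (-0.68 ± 0.10, adjusted p = 0.00995) and H4C12 (-0.66 ± 0.10, adjusted p = 0.0122), which encode the same histone protein and may read each other. Of 27 measured p53 targets 1 rose (3.7%, against 2.95% of all features), the death receptor TNFRSF10B (0.46 ± 0.10, adjusted p = 0.0339), and the median was −0.12. CDKN1A, the CDK inhibitor p21, had an effect of 0.30 ± 0.16, adjusted p = 0.259, with 0.63 under normoxia and -0.04 under hypoxia. Of 8 measured CDK inhibitors and pocket proteins 1 passed (12.5%, against 7.77% of all features), CDKN2C, the inhibitor p18 of CDK4 and CDK6, which fell by 0.80 ± 0.13 (adjusted p = 0.0146). Housekeeping genes, listed for comparison, had 4 of 22 lower, SNRPD3, REEP5 and TFRC among them, and a median of −0.06. That share of 18.2% is above the 4.82% of all features that fell, and 2 to 3 housekeeping genes passed with any 1 pair left out.

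Start-site windows of 3 of these genes are shown for the elements of cell-cycle transcription. Capitals mark CCAAT and the CHR letters TTTGAA in SPC25 and ASPM, and in POLE2 the E2F letters, searched as TTTCCCGC, TTTGGCGC, TTTCGCGC and TTTGCCGC, all on either strand of the same kind of window.
SPC25, chr2:168890381-168890680, minus strand: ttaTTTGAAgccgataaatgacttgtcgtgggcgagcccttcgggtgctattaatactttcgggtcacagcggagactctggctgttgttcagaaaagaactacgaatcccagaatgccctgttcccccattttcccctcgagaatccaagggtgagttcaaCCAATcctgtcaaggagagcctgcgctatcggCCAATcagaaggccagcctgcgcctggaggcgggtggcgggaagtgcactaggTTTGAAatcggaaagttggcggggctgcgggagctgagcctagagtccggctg
ASPM, chr1:197146620-197146919, minus strand: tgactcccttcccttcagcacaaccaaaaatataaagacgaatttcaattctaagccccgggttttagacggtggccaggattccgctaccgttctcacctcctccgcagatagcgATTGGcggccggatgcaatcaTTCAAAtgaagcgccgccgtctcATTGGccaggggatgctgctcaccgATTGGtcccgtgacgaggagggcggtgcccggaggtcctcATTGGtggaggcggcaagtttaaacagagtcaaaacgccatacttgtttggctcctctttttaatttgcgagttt
POLE2, chr14:49688165-49688464, minus strand: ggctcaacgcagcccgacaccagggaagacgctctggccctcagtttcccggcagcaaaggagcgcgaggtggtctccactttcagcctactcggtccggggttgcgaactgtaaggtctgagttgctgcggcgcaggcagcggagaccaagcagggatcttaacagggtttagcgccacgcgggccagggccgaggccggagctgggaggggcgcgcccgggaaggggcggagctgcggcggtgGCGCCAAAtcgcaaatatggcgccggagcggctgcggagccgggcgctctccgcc

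SPC25 held CCAAT boxes 88 and 56 bases before the start and CHR matches 247 and 3 bases before it. ASPM held 4 CCAAT boxes, at 134, 90, 65 and 25 bases before the start, and a CHR match at 113 bases before it. POLE2 held an E2F match that began 5 bases before the start. Of the 38 mitosis genes with a sequence 29 held a CCAAT box (76.3%), 26 a CHR match (68.4%) and 20 both (52.6%), where the shares over all promoters were 35.7%, 15.4% and 6.08%. Of 35 replication genes 20 held an E2F match (57.1%) and 1 a CHR match (2.86%), where 3.33% of all promoters held an E2F match. A CHR match was thus common in the first group and rare in the other.

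**Figure D4:**
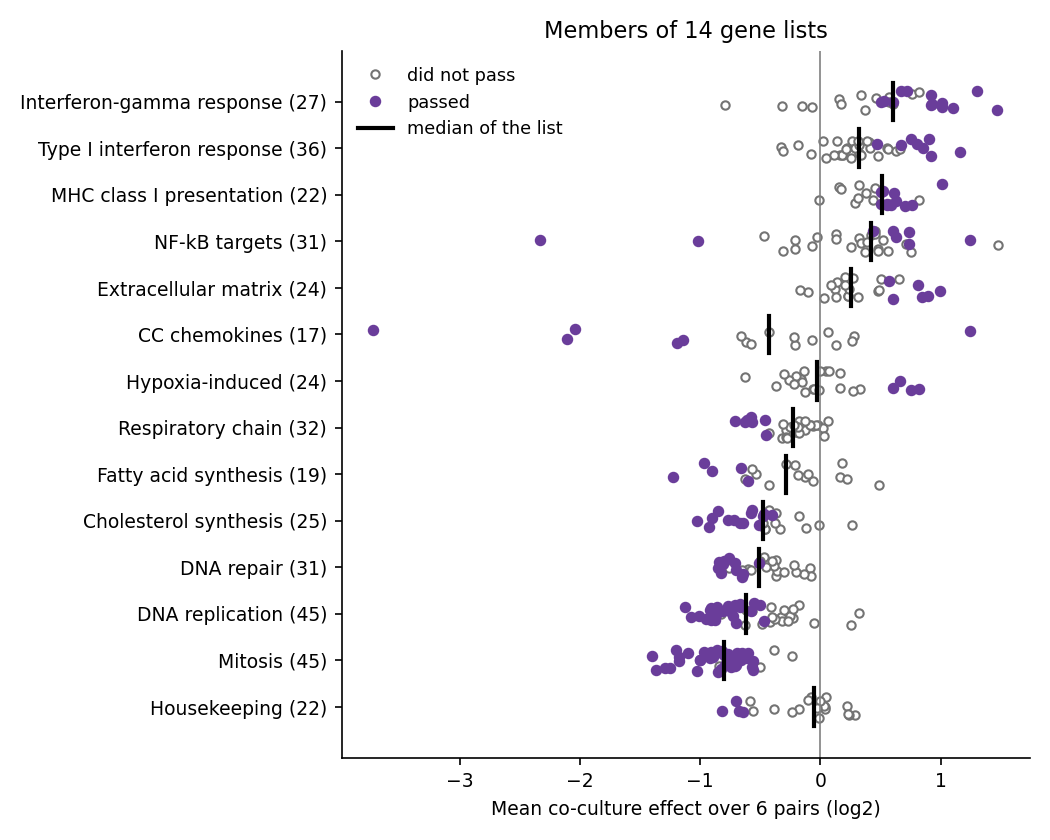
Mean co-culture effect over 6 pairs (log2) of the measured members of 14 gene lists, with filled circles for members that passed the test, open circles for the others, a black line for the median of the list and the number of members in parentheses. The filled circles of the interferon, MHC class I and extracellular matrix lists lie right of 0 and those of the mitosis, replication, repair and lipid lists left of 0, and the mitosis list lies farthest left with a median of −0.80.

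Genes of cholesterol synthesis were lower at both oxygen levels. Of 25 measured members 14 fell (56%, against 4.82% of all features) and 0 rose, with a median of −0.48 (−0.40 under normoxia and −0.53 under hypoxia). EBP, the sterol isomerase of the late pathway, had 13.21, 13.30 and 13.47 in NPC, 12.10, 12.29 and 12.75 in NPM, 13.04, 13.32 and 13.29 in HPC and 12.16, 12.22 and 12.56 in HPM (-0.93 ± 0.10, adjusted p = 0.00761). Its 6 co-culture arrays lay below its 6 arrays of cells alone. INSIG1, which holds the SREBP complex in the endoplasmic reticulum, had -0.77 ± 0.11, adjusted p = 0.00985, and ACAT2, which joins acetyl-CoA units, had -0.85 ± 0.12, adjusted p = 0.00985. With any 1 pair left out, 5 to 8 members passed.

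The window of EBP is shown because it held 3 CCAAT boxes, marked by capitals, at 191, 70 and 30 bases before the start.
EBP, chrX:48521558-48521857, plus strand: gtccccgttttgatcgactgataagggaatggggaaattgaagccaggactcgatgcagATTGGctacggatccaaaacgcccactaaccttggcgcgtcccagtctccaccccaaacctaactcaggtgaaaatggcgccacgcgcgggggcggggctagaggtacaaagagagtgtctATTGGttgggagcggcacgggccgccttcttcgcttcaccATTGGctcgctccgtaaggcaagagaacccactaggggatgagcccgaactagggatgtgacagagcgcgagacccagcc

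A CCAAT box was present in 15 of the 18 cholesterol genes with a sequence (83.3%), and the SRE letters TCACNCCAC in 1 of them (5.56%) and in 1.15% of all promoters. In fatty acid synthesis 5 of 19 measured members fell (26.3%, against 4.82% of all features) and 0 rose, and 3 to 4 passed with any 1 pair left out. FASN, the fatty acid synthase, fell from 13.45, 13.36 and 13.59 in NPC to 12.64, 12.57 and 12.86 in NPM and from 13.31, 13.81 and 13.60 in HPC to 12.38, 12.41 and 12.45 in HPM (-0.97 ± 0.12, adjusted p = 0.00851). The desaturases FADS2 (-1.23 ± 0.19, adjusted p = 0.0128), FADS1 (-0.90 ± 0.14, adjusted p = 0.0138) and SCD (-0.66 ± 0.12, adjusted p = 0.0222) fell with it, as did SREBF1, which encodes SREBP-1 (-0.60 (adjusted p = 0.0284)).

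Energy metabolism moved less. Of 32 measured genes of the respiratory chain 7 fell (21.9%, against 4.82% of all features) and 0 rose (median −0.23), led by NDUFB3 (-0.71 ± 0.11, adjusted p = 0.0123) and NDUFC1 (-0.57 ± 0.11, adjusted p = 0.0215) of complex I, UQCRQ (-0.63 ± 0.11, adjusted p = 0.0169) of complex III and COX6C (-0.58 ± 0.10, adjusted p = 0.0167) of complex IV, and 1 to 5 passed with any 1 pair left out. In glycolysis 1 of 25 rose, PFKL (0.56 ± 0.13, adjusted p = 0.0393), the liver form of phosphofructokinase, and 1 fell, PFKFB3 (-0.53 ± 0.12, adjusted p = 0.037), which makes its activator. The glycolysis calls were 8% of the list, against 7.77% of all features. Among 24 measured hypoxia-induced genes 4 rose (16.7%, against 2.95% of all features) and 0 fell, although the median was −0.03, and 1 to 2 passed with any 1 pair left out. These were CA9, the carbonic anhydrase of hypoxic tumours, ERO1A (0.75 ± 0.11, adjusted p = 0.0122) and NDRG1 (0.66 ± 0.13, adjusted p = 0.0219), which respond to hypoxia and stress, and LOX (0.60 ± 0.12, adjusted p = 0.029), which cross-links collagen. CA9 read 7.14, 7.67 and 8.47 in NPC and 8.57, 8.56 and 9.48 in NPM, and 9.43, 10.01 and 10.57 in HPC and 10.29, 10.39 and 10.89 in HPM (0.82 ± 0.16, adjusted p = 0.0233). The CA9 values of cells alone were higher under hypoxia than under normoxia on every array.

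Genes of the extracellular matrix rose, with 6 of 24 measured members higher (25%, against 2.95% of all features), 0 lower and a median of 0.26. LAMB3 is a chain of a laminin of the basement membrane. LAMB3 rose by 0.84 ± 0.11, adjusted p = 0.00851, while its arrays numbered 3 stood far above numbers 1 and 2 in every group (8.51, 8.86 and 11.42 in NPC and 9.64, 9.86 and 12.07 in NPM). The collagen VI chains COL6A1 (0.99 ± 0.19, adjusted p = 0.0223) and COL6A2 (0.89 ± 0.14, adjusted p = 0.0125) and the collagen IV chains COL4A1 0.60 (adjusted p = 0.0357) and COL4A2 0.57 (adjusted p = 0.0284) rose as well, and 3 to 4 members passed with any 1 pair left out. Of 20 measured mesenchymal genes 3 rose, the fibronectin receptor subunit ITGA5 (0.80 ± 0.11, adjusted p = 0.0091), LOX and LOXL2 (0.49 ± 0.11, adjusted p = 0.0361), and 1 fell, the transglutaminase TGM2 (-1.35 ± 0.17, adjusted p = 0.00851), in all 20% against 7.77% of all features. Of 25 measured epithelial genes 0 rose and 4 fell (16%, against 4.82% of all features), the keratins KRT80 (-1.02 ± 0.14, adjusted p = 0.0101) and KRT18 (-0.50 ± 0.11, adjusted p = 0.0333), the splicing factor ESRP2 (-0.71 ± 0.17, adjusted p = 0.0401) and the desmosomal PKP2 (-0.45 ± 0.11, adjusted p = 0.0479). When any 1 pair was left out, 1 to 2 mesenchymal and 1 to 3 epithelial genes passed. Of 16 measured proteases and their inhibitors 1 fell, MMP7, which cleaves several matrix proteins (-1.11 ± 0.14, adjusted p = 0.00873). The collagenase MMP1 rose (0.52 ± 0.13, adjusted p = 0.0466), so that 12.5% passed, against 7.77% of all features. The protease median was 0.16, and at an unadjusted p under 0.05, 7 members were higher and 1 lower. With any 1 pair left out 1 to 3 proteases passed. Further genes of the largest falls and smallest p have matrix or protease roles, the carboxypeptidase CPA4 (-1.66 ± 0.16, adjusted p = 0.00761) and EGFLAM, pikachurin (-0.96 ± 0.10, adjusted p = 0.00761). The second EGFLAM feature had −0.49 (adjusted p = 0.351).

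The lists of growth factor pathways had 1 or 2 calls each. TGFB1 rose (0.47 ± 0.11, adjusted p = 0.037), the only 1 of 24 measured members of the TGF-beta list to do so (4.17%, against 2.95% of all features), and 0 fell. In the Wnt list 1 of 18 rose, the Wnt deacylase NOTUM (0.71 ± 0.12, adjusted p = 0.0144), and 1 fell, the R-spondin receptor LGR4 (-0.99 ± 0.14, adjusted p = 0.0113), in all 11.1% against 7.77% of all features. In the EGFR list 2 of 16 rose (12.5%, against 2.95% of all features), the receptor EGFR (0.47 ± 0.11, adjusted p = 0.0428) and the ligand NRG1 (0.48 ± 0.11, adjusted p = 0.0385), but only 1 of 4 EGFR features and 1 of 7 NRG1 features passed. With any 1 pair left out TGFB1, EGFR and NRG1 no longer passed. The lists of stress responses had 1 or 2 calls each. In the list of endoplasmic reticulum stress 2 of 17 rose, HSPA5, the chaperone BiP (0.67 ± 0.15, adjusted p = 0.0366), and HERPUD1 (0.57 ± 0.10, adjusted p = 0.0182), which is 11.8% of the list against 2.95% of all features, and 0 to 1 passed with any 1 pair left out. Of 21 ATF4 targets 1 fell, CHAC1 (-0.90 ± 0.17, adjusted p = 0.0221), which degrades glutathione (4.76%, against 4.82% of all features lower). Of 15 heat shock genes 1 fell (6.67%, against the same 4.82%), the mitochondrial co-chaperone HSPE1 (-0.70 ± 0.11, adjusted p = 0.0125). SOD2 was the only 1 of 22 genes in the oxidative stress list that passed (4.55%, against 7.77% of all features). In the lysosome list 4 of 28 rose, with GAA, acid alpha-glucosidase (0.69 ± 0.12, adjusted p = 0.0191), foremost, and 3 fell, GLA (-0.74 ± 0.11, adjusted p = 0.0124), NEU1 (-0.71 ± 0.11, adjusted p = 0.013) and CTSZ (-0.56 ± 0.11, adjusted p = 0.0257). These 7 lysosome calls were 25% of the list, against 7.77% of all features, and with any 1 pair left out there were 2 to 3.

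The 6 pairs were compared to see how far the effect was shared. Over all features the normoxia and hypoxia effects had Pearson's r = 0.299 and Spearman's rho = 0.304, a description over features of the same arrays that are not independent replicates. The differences of single pairs correlated at 0.277 to 0.326 within normoxia, at 0.406 to 0.426 within hypoxia and at 0.135 to 0.269 between the oxygen levels, so pairs of 1 oxygen level were more alike. The median of the mitosis list ran from −0.86 to −0.69 over the 6 pairs, that of cholesterol synthesis from −0.57 to −0.44, and that of the respiratory chain, nearer to 0, from −0.31 to −0.20. Interferon-gamma genes ran from 0.42 to 0.87, with the 3 normoxia pairs above the 3 hypoxia pairs. Replication genes had −0.39 to −0.27 in the hypoxia pairs, and the normoxia pairs lay farther from 0, at −0.78 or lower.

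**Figure D5:**
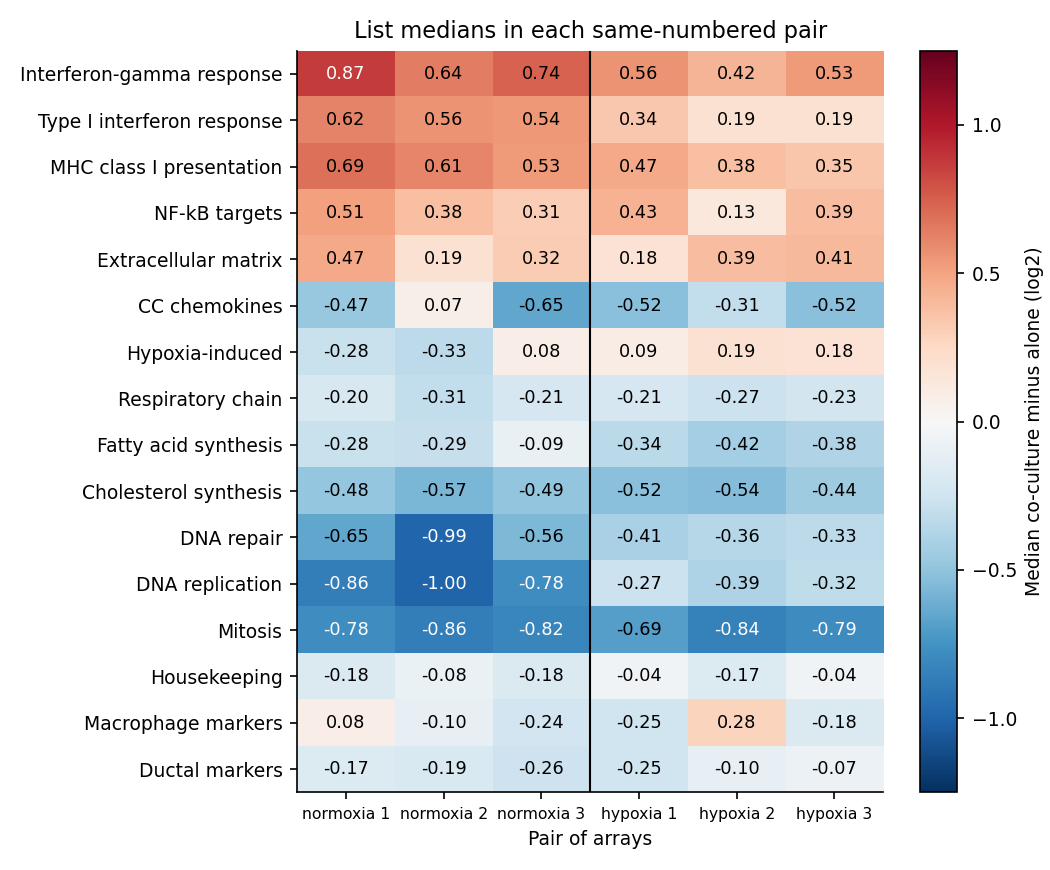
Median of co-culture minus alone (log2) over the measured members of 16 gene lists in each of the 6 same-numbered pairs, normoxia left of the black line and hypoxia right of it, with the value printed in each cell. The interferon, MHC class I, NF-kB and matrix rows are above 0 in all 6 pairs. The mitosis, replication, repair, cholesterol, fatty acid and respiratory chain rows are below 0 in all 6 pairs. So are the housekeeping row (−0.18 to −0.04) and the ductal marker row (−0.26 to −0.07). The rows of hypoxia-induced genes, CC chemokines and macrophage markers change sign between pairs.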

How the data were processed

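PANC-1 mRNA was profiled on 12 arrays of 1 colour, and the deposited table holds intensity values on a linear scale for 34487 features. The authors scanned the Cy3 signal, aligned the images, and applied quantile normalization and RMA. No source used here says how the features were selected, and the study and the submitters name different array makers. No column was left unmapped. Intensities were log2-transformed and fitted in R 4.3.3 with limma 3.58.1 (lmFit, eBayes), with a block for each of the 6 same-numbered pairs within an oxygen level and 1 co-culture effect. No feature was filtered out, and adjusted p values are Benjamini-Hochberg over all features, with 0.05 as threshold. The 3 arrays per group limit the precision, and no background measure was used. The numbers come from the sample titles. Residuals of same-numbered arrays correlated at 0.338, 0.281 and 0.520 under normoxia and 0.502, 0.267 and 0.543 under hypoxia, and those of other pairings at −0.455 to 0.189, so the numbers were taken as pairs (limit 0.1). A second fit with a separate effect per oxygen level tested their difference.

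The probe table named 14133 features and RefSeq accessions 542 more, 14675 in all for 13422 genes, and 19812 features stayed unnamed. The members and the 37 gene lists were chosen with earlier results of these data known. Named genes were the 10 largest rises and falls among features that passed and moved the same way in all 6 pairs, the 5 further smallest p in each direction, and VCAM1, each by its feature of smallest p. The 4 members per list of smallest p were named as well, and genes named by a list alone are given by their feature with the highest mean. Lists used the feature with the highest mean, so SOD2 and a few others have another value there. Some genes that the rule named are not reported here. Promoters came from RefSeq (GRCh38.p14). Alternatives were no replicate block, a random block, separate effects, repeated quantile normalization, median centring, a filter at the 25th percentile, trend and robust settings, plain and paired t-tests, averaged features of a gene, and leaving out pairs. The fit was tested on simulated data. Figures used matplotlib 3.10.9.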

Additional observations from a re-analysis of the deposited data

Results flagged for a closer look

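The co-culture effect of CCL22 differed between the oxygen levels, by 4.38 on the log2 scale as hypoxia minus normoxia (limma, adjusted p = 0.0314), with -5.90 under normoxia and -1.53 under hypoxia and all 6 pairs lower in co-culture. On the NPM arrays only 0.139% to 4.17% of features lay below CCL22, so that the size of its normoxia fall is uncertain.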

How the results depend on the processing

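The counts depended on how the spread was estimated. Without the replicate block 2990 features passed (1010 higher, 1980 lower), 2517 of them the same way in all 6 pairs, 1991 of the 2596 described above were still called, and 156 features, not 31, differed between oxygen levels. With the replicate block and a separate effect for each oxygen level 4536 passed (1718 higher, 2818 lower), and with the block as a random effect 6516 (2415 higher, 4101 lower), 4563 the same way and 1138 differing. Leaving out features under the 25th percentile gave 4082 (1555 and 2527) and 722 differing. Trend and robust settings gave 4669 (1817 and 2852), 3996 the same way and 1496 differing. The methods' t-test gave 5493 at an unadjusted p under 0.05 and 935 after adjustment (307 and 628), 923 the same way, and a paired t-test 1761 (661 and 1100). Median centring gave 78 differing features and averaging the features of a gene 51. With 1 pair left out 840 to 1499 passed (313 to 519 higher, 521 to 980 lower), 840 to 1499 the same way and 0 to 2 differing, and with the arrays numbered 3 left out each of these counts was 0, with 7096 features at an unadjusted p under 0.05. Of the 2596 features, 794 to 1330 were still called with 1 pair left out. Of the 113 named genes that passed, 76 passed with each pair left out in turn, and 37 did not with at least 1 pair left out, at adjusted p up to 0.117. These included C2, CA9, CCL22, CCL3, CD68, CD74, CEACAM1, CFB, CHAC1, COL6A1, COX6C, CTSZ, EGFR, ESRP2, GAA, HERPUD1, HLA-F, HSPA5, ICAM1, IL23R, KRT18, LOX, LOXL2, MMP1, NDRG1, NDUFC1, NRG1, PARP12, PFKFB3, PFKL, PKP2, SCD, TFRC, TGFB1, TNFRSF10B and UQCRQ. For CTSZ, EGFR, HSPA5, LOXL2, NRG1, PKP2, TGFB1 and TNFRSF10B this held whichever pair was left out. Among the genes with the largest effects or smallest p, the paired t-test ended the calls of CFB, IL2RG, IL23R, CCL22 and CCL4 (adjusted p 0.0511 to 0.104), and the methods' t-test those of NGFR, IL2RG, IL23R, GBP3, CCL22, FAM111B, SPC25, OLFM2 and EGFLAM (0.0565 to 0.335). Averaging its features ended that of EGFLAM (0.0541). The part of fewer arrays and of other properties of the pairs was not tested. The share of calls that were higher in co-culture was 37.9%, against 43.7% after repeated quantile normalization and 45.7% after median centring. CDKN2A, which did not pass, was the only named value that changed sign, at 0.21 with features averaged against -0.20.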

Other observations

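The following genes were not named by the rule above and were chosen after their values were seen. Each passed the test in limma and moved the same way in all 6 pairs. CD40, a co-stimulatory receptor of the TNF receptor family, rose by 1.28 ± 0.14, adjusted p = 0.00761 (n = 6 pairs), with cells alone at 8.20 to 9.29 and co-cultured cells at 9.97 to 10.53. CD83, known from mature dendritic cells, rose by 1.13 ± 0.14, adjusted p = 0.00851. IL15RA, which presents IL-15 to neighbouring cells, rose by 1.10 ± 0.14, adjusted p = 0.0091, and IL32, an intracellular and secreted cytokine, by 1.06 ± 0.14, adjusted p = 0.00873, with all 4 of its features past the test. The butyrophilins BTN3A1 (0.93 ± 0.12, adjusted p = 0.00853), BTN3A2 (0.74 ± 0.13, adjusted p = 0.0173) and BTN3A3 (0.90 ± 0.11, adjusted p = 0.00851) rose, but they are near-identical copies whose features may read each other. APOBEC3G, a cytidine deaminase that restricts retroviruses, rose by 0.85 ± 0.10, adjusted p = 0.00761, and UBA7, the enzyme that activates ISG15, by 1.10 ± 0.17, adjusted p = 0.0134. The growth factor gene IGF2 rose by 1.00 ± 0.12, adjusted p = 0.00851, and TXNIP, which binds thioredoxin, by 1.11 ± 0.17, adjusted p = 0.0129.

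On the falling side, EZH2, the methyltransferase of histone H3 in the Polycomb complex, had -0.87 ± 0.10, adjusted p = 0.00761. UHRF1, which guides maintenance methylation of DNA, had -0.86 ± 0.12, adjusted p = 0.00985, LMNB1, lamin B1 of the nuclear envelope, had -0.94 ± 0.14, adjusted p = 0.0124, and NEIL3, a DNA glycosylase, had -1.29 ± 0.17, adjusted p = 0.0091.

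The arrays numbered 3 stood apart for some genes in every group, whatever the culture. LAMB3 read 9.22, 9.41 and 11.93 in HPC and 10.00, 10.12 and 12.69 in HPM, and CDKN2A read 4.93, 5.42 and 7.63 in NPC, 4.88, 4.65 and 7.62 in NPM, 5.10, 5.74 and 8.66 in HPC and 4.31, 5.20 and 9.64 in HPM. The paired differences of LAMB3 at number 3 (0.65 under normoxia and 0.76 under hypoxia) had the sign of the other 4 pairs. For CDKN2A the hypoxia pair numbered 3 had a difference above 0 (0.98) while the other 2 hypoxia pairs had -0.79 and -0.55. No source used here says what the numbers mark.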
